A study of Mus musculus with 18 samples.

Results

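The 33 genes described here encode the folding machinery of the endoplasmic reticulum (ER) and the unfolded protein response that adjusts it. They were chosen as a named list, not by any measured value: 12 chaperones and co-chaperones, 6 genes of disulfide exchange and oxidation, 6 sensors and transcription factors, 4 genes of ER-associated degradation, 3 targets of the transcription factor ATF4 and 2 genes of protein translocation into the ER. All 33 were found on the array among 12610 genes tested, each read from the probe set of highest mean, and all 33 lay above the filter on dim signal on every array. Both genotypes of male mice of the strain labelled CR7BL6, aged 10 weeks, received 0.7 mg of tamoxifen on 3 days, controls (SRF-flex2neo littermates) included, and RNA of the cardiac ventricles was hybridised, 1 heart per array. SRFHKO mice carry a tamoxifen-dependent deletion of the gene for serum response factor (SRF), a transcription factor of muscle and growth-responsive genes; the sources used here do not name the promoter that drives the recombinase. At day 8 there were 2 control and 4 SRFHKO hearts, and at day 25 each genotype had 3 hearts without and 3 with phenylephrine (PE). PE, which activates alpha-1 adrenergic receptors and is used to provoke cardiac hypertrophy, was given at 80 mg/kg/day by minipump from day 10 to day 25. In these bulk samples, fewer cells of a type and less RNA per cell cannot be told apart.

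Secreted and membrane proteins fold in the ER lumen, where Hspa5 (BiP), Hsp90b1 (GRP94) and the lectins calnexin and calreticulin hold them and protein disulfide isomerases form their disulfide bonds. When unfolded protein accumulates, the membrane sensors Ern1 (IRE1 alpha), Eif2ak3 (PERK) and Atf6 are activated. Spliced Xbp1 and cleaved Atf6 then raise transcription of chaperones and degradation genes, while PERK slows translation and favours production of Atf4, whose targets include Ddit3 (CHOP), Trib3, Chac1 and Asns. Ddit3 is counted here with the sensors and transcription factors, and the others as the targets of ATF4. In heart muscle, calreticulin also buffers the calcium of the ER, and the response is known to be engaged under pressure overload and ischaemia. Sensor activation by cleavage, splicing or phosphorylation is not read by these arrays, which measure transcript levels only.

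Levels are given as log2(scaled signal + 2), and every difference is on that scale, with its standard error. The 2% trimmed means of the arrays before scaling were 110 to 148 at day 8 and 46.6 to 85.4 at day 25, so the day and the run of the arrays cannot be told apart. The labelled tissue was borne out by its markers: 16 of 16 cardiomyocyte genes lay above the filter, against 1 of 7 pancreas genes and 1 of 7 T cell genes. Of cells that a ventricle also holds, the markers above the filter were 12 of 12 for endothelium, 12 of 12 for fibroblasts, 12 of 12 for macrophages, 8 of 8 for smooth muscle and pericytes, 3 of 6 for adipocytes and 2 of 6 for erythroid cells. Of the lung markers 3 of 6 lay above it, and their signal summed to 23.7 to 104 over the groups, against 100200 to 166700 for the cardiomyocyte markers. Srf itself was read by 2 probe sets and since their place relative to the deleted part is unknown, they do not check the labels. The brighter one ranged from 7.44 to 8.00 in control and from 7.65 to 8.21 in SRFHKO hearts at day 8, and between 7.37 and 7.66 in control and 7.16 and 7.63 in SRFHKO hearts at day 25 with no PE. The dimmer one ranged from 6.64 to 7.05 and from 6.95 to 7.23 at day 8, and at day 25 without PE it was lower in SRFHKO hearts without overlap, 5.97 to 6.12 in control against 5.02 to 5.85. With PE its groups overlapped again, 6.00 to 6.20 and 5.96 to 6.35.

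Across the 5 comparisons of a single treatment or genotype and both interactions, 0 of the 33 genes passed the threshold of an adjusted p of 0.05 (limma, Benjamini-Hochberg over 12610 genes). The most prominent feature of these genes was not a difference between groups but a difference between hearts of the same group: in the 2 groups of day 8, in the SRFHKO hearts with PE and in the control hearts of day 25, most chaperones were high or low together in a given heart. The direction under PE was upward in both genotypes for 24 of the 33 genes, against 24.9% of all genes tested, a count of genes that did not vary independently. These descriptions follow in that order, after the promoter sequences that several of the genes share.

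The ER stress response element (ERSE), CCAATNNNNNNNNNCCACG, is the site at which ATF6, with the CCAAT-binding factor NF-Y, activates chaperone genes. It was searched on both strands in the 250 bases before the transcription start in the RefSeq promoter table of build GRCm38.p6, in which 30 of the 33 genes had an entry (all but Atf6, Hyou1 and Manf). It was present in 9 of the 30 genes, or 30%, against 35 of 27025 genes in the table, or 0.13%. Since the element is known as a site of chaperone genes, this excess follows from the choice of genes and is not a result. The related element ERSE-II, ATTGGNCCACG, was present in Herpud1 and in 10 genes of the table. The stretches below show the elements in capitals with their flanks, 5′ to 3′ on the strand of the gene, for the genes whose levels in each heart are described next, Canx, which varied little, among them. In Calr, Creld2 and the second copy of Hsp90b1 the element lies on the opposite strand, so that the reversed CCAAT box follows.
Hspa5 (chr2:34772015-34772053, plus strand): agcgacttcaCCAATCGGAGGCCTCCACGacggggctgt
Hsp90b1 (chr10:86705523-86705666, minus strand): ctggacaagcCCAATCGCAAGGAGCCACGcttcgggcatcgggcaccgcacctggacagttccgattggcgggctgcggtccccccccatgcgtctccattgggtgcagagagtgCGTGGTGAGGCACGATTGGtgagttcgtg
Dnajc3 (chr14:118937817-118937855, plus strand): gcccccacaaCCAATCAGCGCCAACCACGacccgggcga
Pdia6 (chr12:17266481-17266519, plus strand): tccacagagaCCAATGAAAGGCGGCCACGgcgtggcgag
Calr (chr8:84847065-84847103, minus strand): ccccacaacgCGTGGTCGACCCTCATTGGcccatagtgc
Creld2 (chr15:88819510-88819548, plus strand): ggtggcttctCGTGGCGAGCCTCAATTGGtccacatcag
Canx (chr11:50325790-50325828, minus strand): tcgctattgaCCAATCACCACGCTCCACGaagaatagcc
Herpud1 (chr8:94386367-94386397, plus strand): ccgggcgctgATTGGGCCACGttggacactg

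Among the ERSE genes shown, that of Hspa5 lies nearest to the start, and Hsp90b1 holds 2 copies. Ero1lb and Syvn1 hold the others of the 9. The core of the unfolded protein response element, TGACGTGG, was in 0 of the 30 promoters (0.603% of genes in the table), and the ATF4 and CHOP composite element, TGATGNAA, was in 3, those of Asns, Chac1 and Herpud1 (10% against 3.91%). The CArG box, the site of SRF, was in 0 of the 30 windows, against 1.62% of genes in the table. A match is a description of letters in this window and not evidence of a factor at work there.

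Hspa5, the most abundant chaperone of the ER lumen, had log2 levels of 10.92 and 11.95 in the 2 control hearts at day 8 and of 11.38, 12.40, 11.49 and 12.08 in SRFHKO replicates 1 to 4. Replicates 2 and 4 of the SRFHKO hearts were the high ones, and control replicate 2 lay above SRFHKO replicates 1 and 3. Calr, calreticulin, had 10.81 and 11.50 in control and 11.20, 11.93, 11.31 and 11.95 in SRFHKO hearts, with the same pair of SRFHKO hearts on top. Hsp90b1, the ER member of the HSP90 family, had 9.86 and 10.70, then 10.26, 11.36, 10.32 and 11.12, again in that order of hearts.

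Manf, a secreted ER stress protein that binds Hspa5, had 7.89 and 9.17 in the 2 control hearts and 8.92, 10.59, 8.93 and 9.92 in the SRFHKO hearts at day 8. Creld2, an ER protein of the disulfide exchange network known as a target of ATF6, had 6.72 and 7.64, then 7.10, 8.77, 7.02 and 8.03. Both genes separated SRFHKO replicate 2 from replicates 1 and 3 by more than they separated the genotypes. Dnajc3, the HSP40 co-chaperone p58IPK, had 7.67, 9.80, 7.93 and 8.63 in the SRFHKO hearts, a range of 2.12, the widest of the 33 genes in that group. Sdf2l1, a partner of the HSP40 co-chaperone Dnajb11, followed with a range of 1.95. Canx, the membrane-bound calnexin, was at the other end of the chaperones with 9.53, 9.86, 9.60 and 9.68, a range of 0.33. Pdia6, a disulfide isomerase that works with Hspa5, had 8.04 and 8.90 in control and 8.21, 9.93, 8.53 and 9.35 in the SRFHKO hearts, with replicates 2 and 4 on top. Herpud1, a membrane protein that organises the degradation complex, had 10.47 and 10.71 in control and 10.10, 10.77, 10.55 and 10.07 in SRFHKO hearts, where replicates 2 and 3 were the upper ones.

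**Figure D1:**
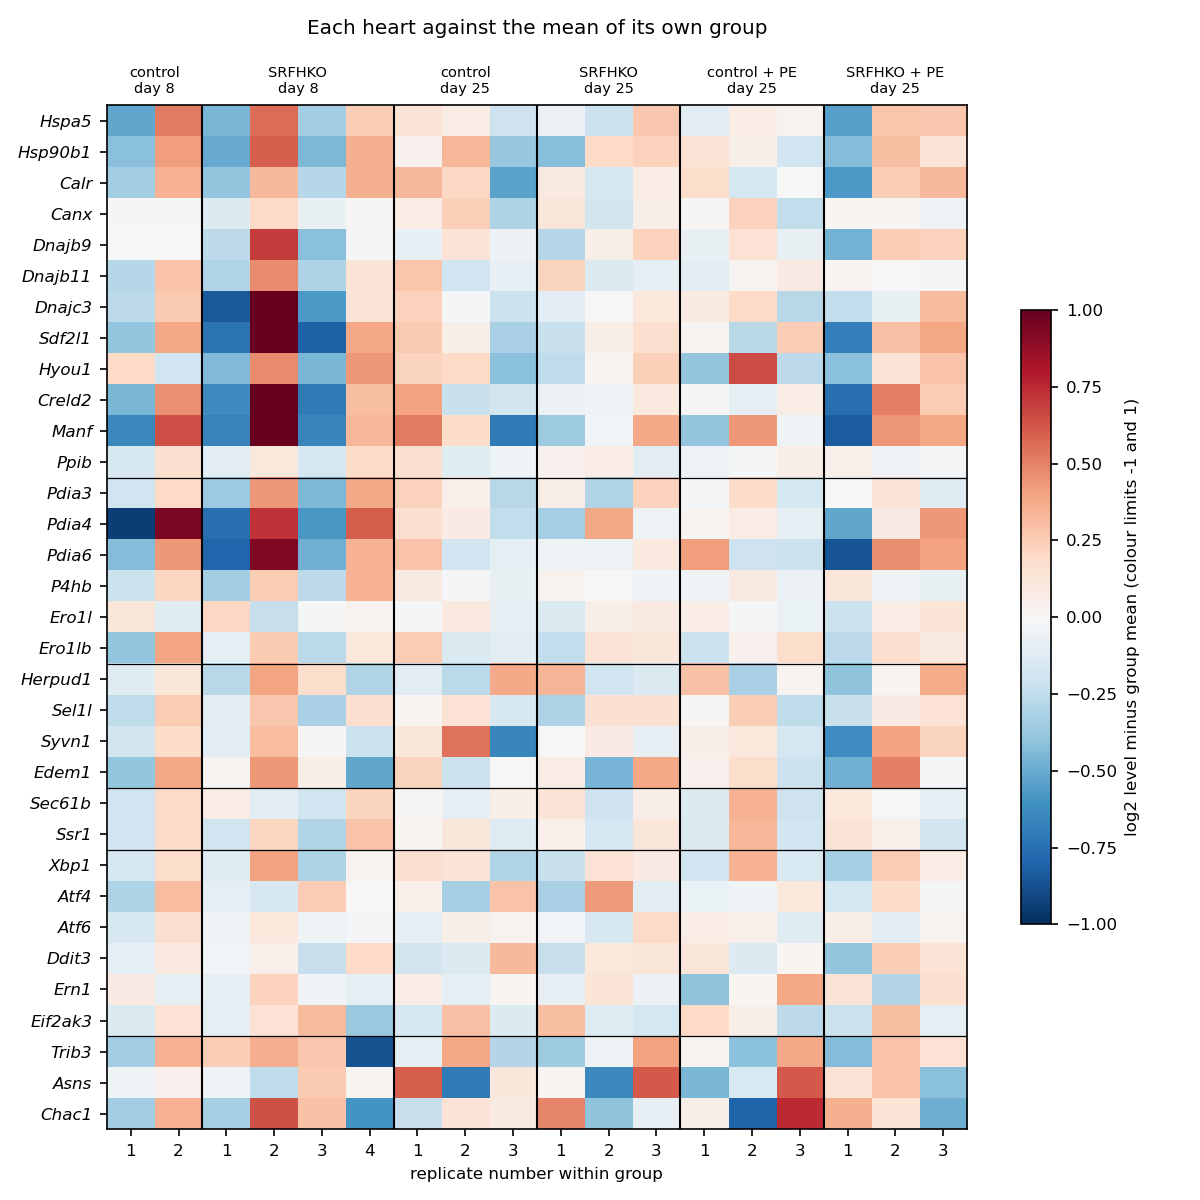
Log2 level of each of the 33 genes (rows, ordered by role, black lines between roles) in each of the 18 hearts (columns, by group and replicate number) minus the mean of that heart's own group; red is above the group mean, blue below, with colours capped at -1 and 1. The columns of SRFHKO replicates 2 and 4 at day 8 are red over the chaperone rows and those of replicates 1 and 3 blue, and replicate 1 of the SRFHKO hearts with PE is blue over most rows.

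In the SRFHKO group of day 8, replicates 2 and 4 held the upper pair of values in 22 of the 33 genes, and in 16.3% of all genes tested. That pair was singled out after the values were seen. It held in 12 of 12 chaperones and 5 of 6 disulfide genes, the exception being Ero1l. It held in 3 of 6 sensors and transcription factors, Ddit3 among them, 1 of 4 degradation genes, 1 of 2 translocation genes and 0 of 3 targets of ATF4. The counts of 22 and 12 were the same after quantile normalisation, after scaling to a common median and without a pseudocount. They rest on the brightest probe set of each gene. Dimmer probe sets of Hspa5, Canx and Dnajc3, and all those of Hyou1, had another upper pair. Other dimmer probe sets, of Hspa5, Hsp90b1, Calr, Canx, Dnajc3 and Ppib, had the same pair.

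The chaperones of each SRFHKO heart of day 8 deviated from their group means by a median of -0.45, 0.58, -0.43 and 0.27 in replicates 1 to 4, while the median over all genes lay within 0.02 of 0. The disulfide genes deviated by -0.35, 0.34, -0.36 and 0.35. The sensors and transcription factors stayed closer to their group means, at -0.09, 0.13, -0.04 and -0.01, and the targets of ATF4 took another order, at -0.04, 0.36, 0.27 and -0.60.

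**Figure D2:**
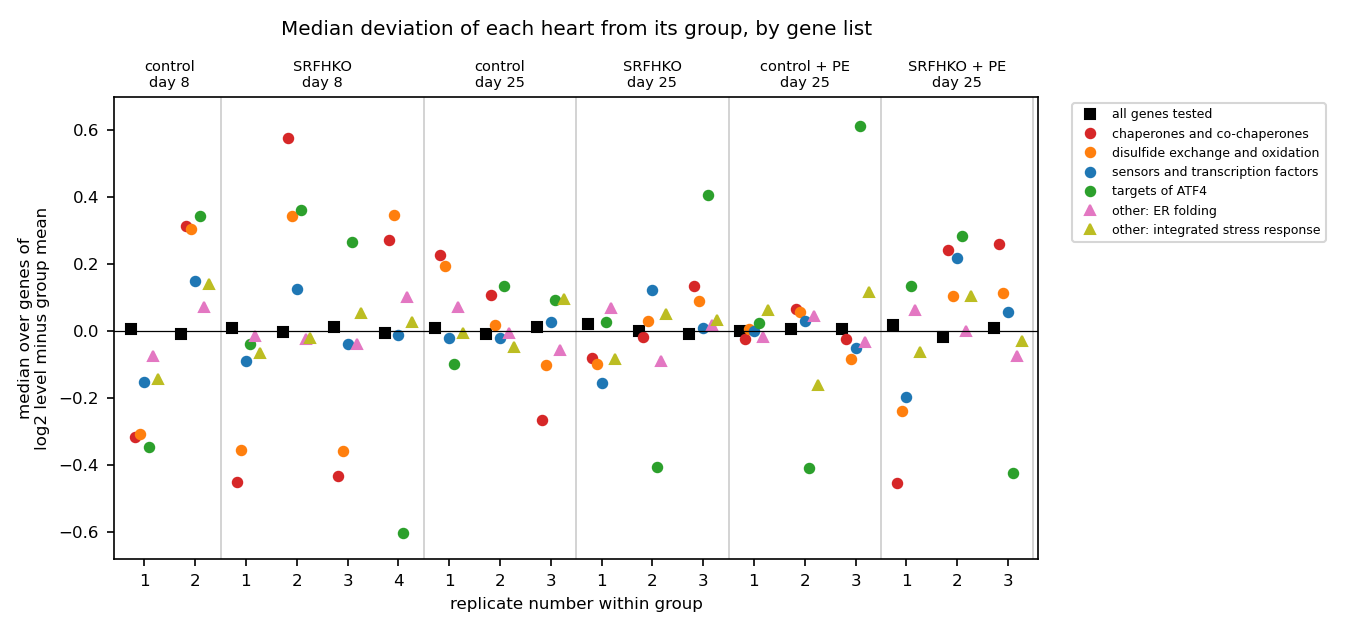
Median over the genes of a list of the log2 level minus the group mean (vertical axis) for each heart (horizontal axis, by group and replicate number); circles are roles among the 33 genes, triangles other lists, and black squares all 12610 genes tested. The chaperones reach 0.58 in SRFHKO replicate 2 of day 8 and -0.45 in replicate 1 of the SRFHKO hearts with PE, while the black squares stay close to 0 in every heart.

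Other groups also held hearts that stood apart. Among the 2 control hearts of day 8, replicate 2 was the higher in 29 of the 33 genes and in 48.4% of all genes. The exceptions were Canx (9.56 and 9.53), Hyou1, a large HSP70-like chaperone (8.37 and 7.98), Ero1l (7.51 and 7.27) and Ern1 (7.63 and 7.47). Among the SRFHKO hearts with PE, replicate 1 was the lowest in 22 of the 33 genes and 9 of 12 chaperones, against 33% of all genes. In the control hearts of day 25, replicate 3 was the lowest in 17 of the 33 genes and 8 of 12 chaperones, against 35.1% of all genes, and the median chaperone deviation was 0.23, 0.11 and -0.27 in replicates 1 to 3. In the remaining groups the median deviations were smaller. In the control hearts with PE the median chaperone deviation was -0.02, 0.07 and -0.02, with 6, 8 and 6 of 12 chaperones above the group mean. In the SRFHKO hearts of day 25 without PE it was -0.08, -0.02 and 0.13, with 4, 5 and 10 of 12 above. By rank this last group was close to the control hearts of day 25. Its replicate 1 was the lowest in 17 of the 33 genes and 7 of 12 chaperones, against 33.5% of all genes. Its replicate 3 was the highest in 18 of the 33 genes and 8 of 12 chaperones, against 29.5% of all genes.

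Over all groups, the within-group SD had a median of 0.33 over the 33 genes and 0.41 over the chaperones, against 0.25 over all genes tested. The 33 genes were also brighter than most, with a median mean level of 8.14 against 6.55. Manf had the largest SD, 0.66, above 90.3% of all genes, and Pdia4, another disulfide isomerase, followed at 0.61. Atf6 had the smallest, 0.12, above 8.21% of all genes. The 10 genes with an ERSE or ERSE-II had a median SD of 0.39, and 8 of the 10 showed the upper pair of replicates 2 and 4. The 20 genes with a promoter entry and no such element had a median SD of 0.27, and 11 of the 20 showed it. The chaperones among those 20, Dnajb9, Dnajb11, Sdf2l1 and Ppib, all showed the pair. The degradation genes Syvn1 and Herpud1 hold an element and did not show it. Element and role cannot be told apart here.

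Of the measures of the arrays themselves, several followed these hearts in some groups and not in others. The signal of the 18S ribosomal RNA control was 751, 1402, 705 and 943 in SRFHKO replicates 1 to 4 of day 8, and 2426 and 3069 in the 2 control hearts, so replicates 2 and 4 and control replicate 2 were again the higher. It was 633, 757 and 1731 in the SRFHKO hearts with PE, where replicate 1 was also the lowest. In the control hearts of day 25 it was 1517, 718 and 987, and the lowest, replicate 2, was not the heart with the low chaperones. The ratio of 3′ to 5′ Gapdh probe sets was 0.850, 0.908, 0.921 and 0.936 in the SRFHKO hearts of day 8, and array brightness was 148, 139, 136 and 110. Neither set replicates 2 and 4 apart from 1 and 3. In the control hearts of day 25 brightness was 56.7, 68.5 and 46.6, lowest in replicate 3, which had the low chaperones. The 3′ to 5′ Actb ratio was 2.07 and 2.52 in the control hearts of day 8. It was 1.87, 2.09 and 2.31 in the SRFHKO hearts with PE, lowest in replicate 1. In the SRFHKO hearts of day 8 it was 2.07, 2.12, 1.80 and 1.52, lowest in replicate 4. The part of these measures in the differences between hearts was not tested. Summed macrophage signal over 12 markers was 4854, 4371, 5187 and 6545 in SRFHKO replicates 1 to 4 of day 8. In the 2 control hearts of day 8 it was 5300 and 8120, and summed fibroblast signal was 10000 and 15430, both higher in replicate 2. In the control hearts of day 25 the macrophage signal was 6483, 6636 and 5415, lowest in replicate 3. In the SRFHKO hearts with PE it was 6075, 5864 and 5579, highest in replicate 1. The part of cell content in the differences between hearts was not tested.

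Whether deletion of SRF altered these genes early was asked at day 8. Of the 33 genes, 22 were higher and 11 lower in SRFHKO hearts, with a median of 0.21 against -0.00 over all genes, and 0 passed the adjusted threshold (0.0634% of all genes did). At an unadjusted p under 0.05 there were 5 genes, all higher (8.74% of all genes in either direction). Groups did not overlap in 2 genes, Pdia3 and Atf6 (18.5% of all genes).

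Pdia3, the disulfide isomerase that works with calnexin and calreticulin, had 8.48 and 8.88 in the control hearts of day 8 and 9.04, 9.83, 8.95 and 9.78 in the SRFHKO hearts. All SRFHKO hearts lay above both controls, and the difference was 0.72 ± 0.23, or 1.65-fold (limma adjusted p = 0.345). A second, dimmer probe set of Pdia3 had -0.39, and with both averaged the difference was 0.16. P4hb, protein disulfide isomerase and a subunit of collagen prolyl hydroxylase, had 10.32 and 10.75 against 10.61, 11.21, 10.69 and 11.30. Its groups overlapped, and its difference was 0.42 ± 0.16 (limma adjusted p = 0.462). Atf6 had 8.84 and 9.16 against 9.25, 9.40, 9.25 and 9.28, without overlap, and a difference of 0.29 ± 0.12 (limma adjusted p = 0.473), or 0.17 with its probe sets averaged.

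The 12 chaperones had a median difference of 0.42 at day 8, 10 of them higher, and the 6 disulfide genes one of 0.48, 5 of them higher. The difference of Hspa5 was 0.40 ± 0.29 with a 95% interval from -0.20 to 1.0, that of Hsp90b1 0.49 ± 0.31, that of Calr 0.44 ± 0.27 and that of Manf 1.06 ± 0.47 (limma adjusted p = 0.751, 0.694, 0.694 and 0.532). Among the regulators, Xbp1 differed by 0.15 ± 0.21, Atf4 by 0.03 ± 0.20, Ddit3 by 0.28 ± 0.19, Ern1 by -0.06 ± 0.19 and Eif2ak3 by -0.23 ± 0.23. The 3 genes counted as targets of ATF4, Trib3, Asns and Chac1, were all lower, with a median of -0.10. Ddit3, also a target of ATF4, was higher, as given above.

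Single hearts set much of the day 8 median, which was 0.03 without control replicate 1, 0.39 without control replicate 2 and 0.08 without SRFHKO replicate 2, while 0 genes passed in each case. The genotypes also differed at day 8 in the 18S signal, 2426 and 3069 in control against 705 to 1402 in SRFHKO, and in the Gapdh 3′ to 5′ ratio, 1.02 and 1.01 against 0.850 to 0.936. Fibroblast markers, 12 of 12 above the filter, summed to 10000 and 15430 in control and to between 6859 and 9757 in SRFHKO hearts. The part of these in the differences was not tested.

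At day 25 without PE, 12 of the 33 genes were higher and 21 lower in SRFHKO hearts, with a median of -0.03 against -0.05 over all genes, and 0 passed the adjusted threshold (2.34% of all genes did). After scaling to a common median, 24 were higher, with a median of 0.19 against 0.17. Leaving out 1 heart moved the median from -0.10 (without SRFHKO replicate 3) to 0.01 (without SRFHKO replicate 2), and the number of genes higher from 10 to 17. It was -0.09 without control replicate 3, -0.07 without SRFHKO replicate 1, -0.06 without control replicate 2 and 0.00 without control replicate 1. At an unadjusted p under 0.05 there were 3 higher and 2 lower (18.3% of all genes). Groups did not overlap in 4 genes (21.6% of all genes): Ssr1 was higher, and Hspa5, Creld2 and Ero1lb were lower in SRFHKO hearts.

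Hspa5 had 11.58, 11.52 and 11.23 in control hearts of day 25 and 10.78, 10.63 and 11.10 in SRFHKO hearts. Every SRFHKO heart lay below every control, and the difference was -0.61 ± 0.27 with a 95% interval from -1.17 to -0.04 (limma adjusted p = 0.236). A second probe set of Hspa5 had -0.41 with overlapping groups, 10.61, 10.75 and 10.11 against 9.86, 9.99 and 10.40. A dimmer one had -0.29 without overlap, 7.38, 7.44 and 7.56 against 7.16, 7.18 and 7.17. Creld2 had 7.60, 6.98 and 7.02 against 6.70, 6.72 and 6.85, a difference of -0.44 ± 0.38 (limma adjusted p = 0.566). Ssr1, a subunit of the complex that assists translocation of nascent chains, had 8.52, 8.61 and 8.37 against 8.94, 8.71 and 9.01. That difference was 0.39 ± 0.17 (limma adjusted p = 0.229), the smallest adjusted p of the 33 genes in this comparison. With all Ssr1 probe sets averaged it was 0.18.

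Canx had 10.03, 10.19 and 9.64 in control and 10.38, 10.08 and 10.33 in SRFHKO hearts, a difference of 0.31 ± 0.14 with overlapping groups (limma adjusted p = 0.231). It was 0.11 (adjusted p = 0.822) with array brightness as a covariate and 0.20 with the probe sets of Canx averaged. Herpud1 differed by -0.50 ± 0.23 (limma adjusted p = 0.246). Calr differed by -0.39 ± 0.26, Hsp90b1 by 0.15 ± 0.29, Xbp1 by -0.09 ± 0.20, Atf4 by 0.35 ± 0.19, Atf6 by 0.16 ± 0.11, Ern1 by -0.22 ± 0.17 and Eif2ak3 by -0.33 ± 0.22. Ddit3, the transcription factor CHOP, had 7.37, 7.41 and 7.88 in control and 7.72, 8.05 and 8.06 in SRFHKO hearts. Its difference of 0.39 ± 0.18 (limma adjusted p = 0.237) passed the threshold when arrays were scaled to a common median (adjusted p = 0.0436), a scaling that moved the median of all genes to 0.17. Array brightness lay between 46.6 and 68.5 for control hearts and between 71.2 and 83.5 for SRFHKO hearts, and summed cardiomyocyte signal 149000 to 166700 and 114900 to 135800. With brightness as a covariate the median over the 33 genes was -0.06, and Hspa5 differed by -0.62 and Ssr1 by 0.31; the part of the cardiomyocyte signal was not tested.

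Under PE at day 25, 22 of the 33 genes were higher and 11 lower in SRFHKO than in control hearts, with a median of 0.10 against -0.00 over all genes. Leaving out 1 heart moved the median from 0.02 (without SRFHKO replicate 3, and likewise without replicate 2) to 0.19 (without SRFHKO replicate 1), and the number higher from 18 to 28. It was 0.05 without control replicate 1, 0.05 with array brightness as a covariate, and 0.22 against 0.12 over all genes after scaling to a common median. None passed the adjusted threshold in limma, that is 0 of 33 (1.63% of all genes did), and 2 were higher at an unadjusted p under 0.05 (14.6% of all genes). Groups did not overlap in 3 genes, all higher in SRFHKO hearts: P4hb, Dnajb11 and Atf6 (20.3% of all genes).

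Atf6 had 9.22, 9.20 and 9.03 in control hearts with PE and 9.58, 9.41 and 9.55 in SRFHKO hearts with PE. The difference was 0.36 ± 0.11, or 1.29-fold, with a 95% interval from 0.13 to 0.59 (limma adjusted p = 0.105), the smallest adjusted p of the 33 genes in any comparison. The 2 dimmer probe sets of Atf6 had the opposite sign, -0.07 and -0.10, and with all 3 averaged the difference was 0.07 (adjusted p = 0.861). Syvn1, the ubiquitin ligase HRD1 of ER-associated degradation, had 7.20, 7.25 and 6.97 against 7.12, 8.14 and 7.96, and SRFHKO replicate 1 lay within the control range. Its difference was 0.60 ± 0.26 (limma adjusted p = 0.289), and without that heart the adjusted p was 0.0866. With array brightness as a covariate it was 0.22 (adjusted p = 0.823), and with its probe sets averaged 0.36. Herpud1 differed by -0.45 ± 0.23 (limma adjusted p = 0.375), Hspa5 by -0.17 ± 0.27, Calr by -0.15 ± 0.26 and Eif2ak3 by 0.37 ± 0.22.

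**Figure D3:**
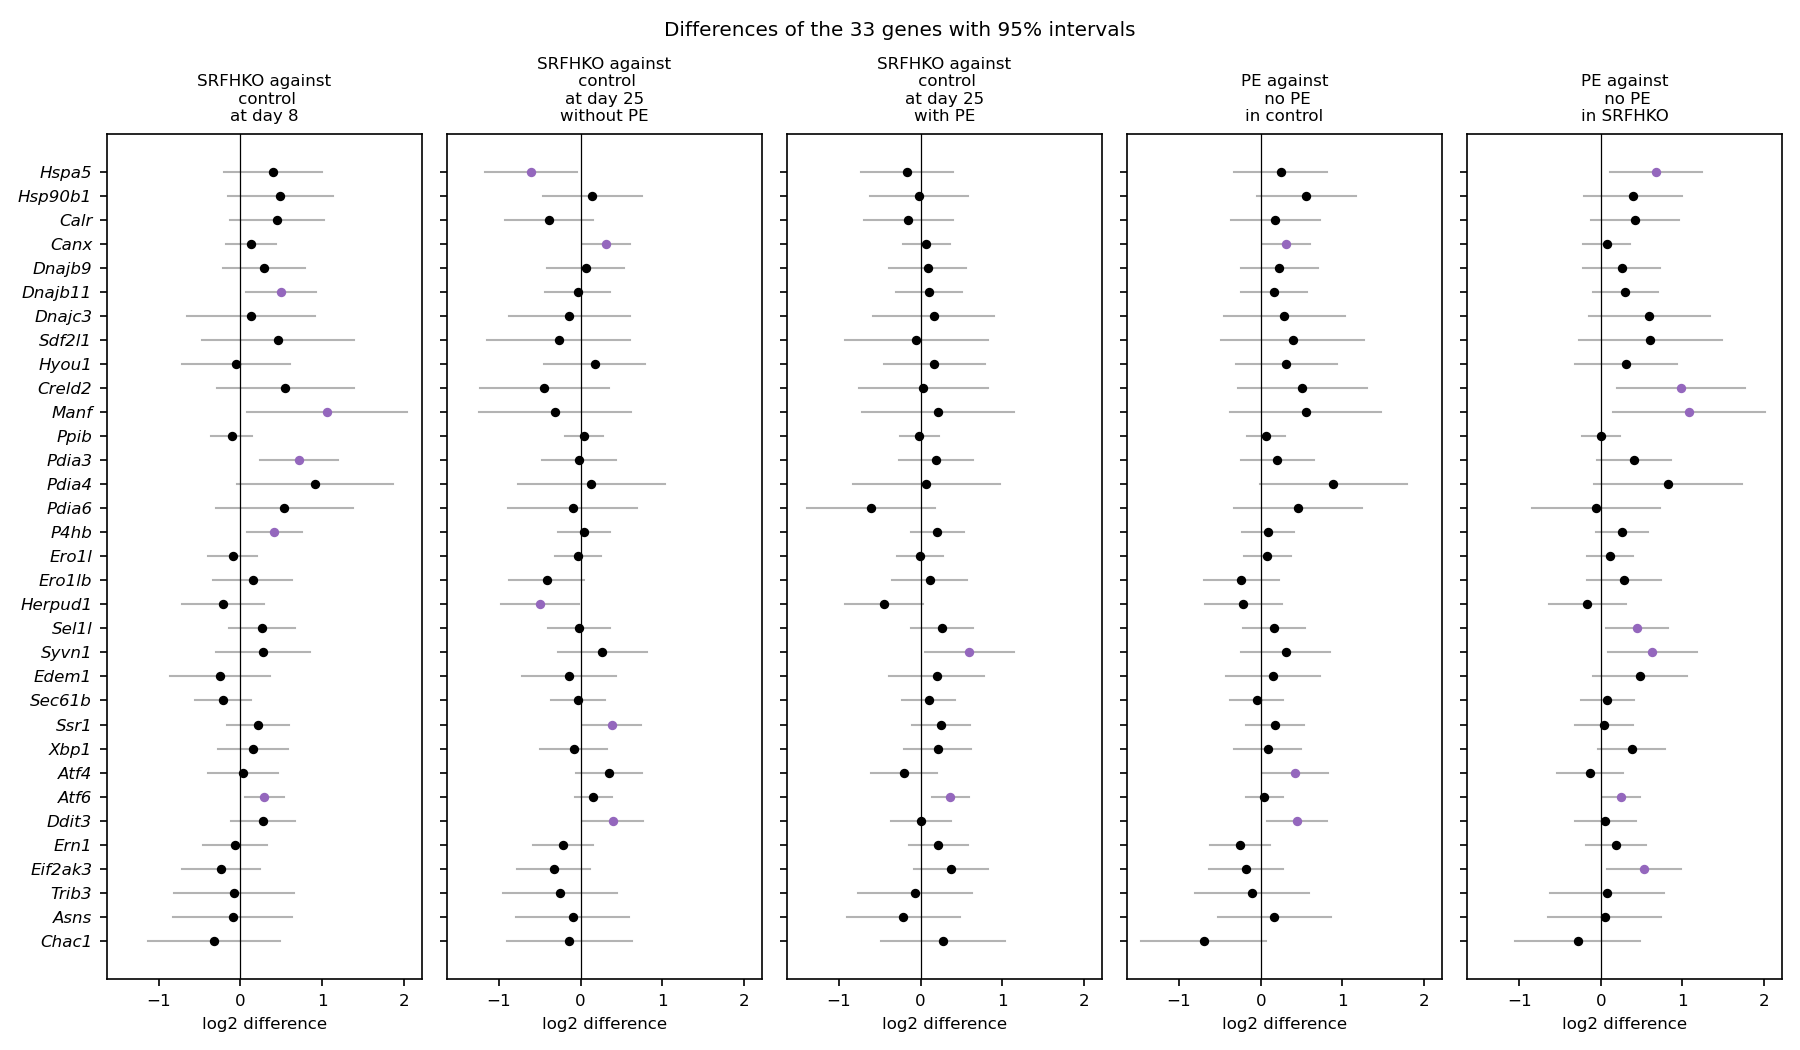
Log2 difference (horizontal axis) with its 95% interval from the limma fit for each of the 33 genes (rows, ordered by role) in 5 comparisons (panels); purple points have an unadjusted p under 0.05, and 0 pass the adjusted threshold. Most points lie right of 0 in both PE panels, 26 of 33 in control and 29 of 33 in SRFHKO hearts.

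The response to PE was measured separately in control hearts and in SRFHKO hearts, which share no arrays. In control hearts, 26 of the 33 genes were higher with PE and 7 lower, with a median of 0.18 against -0.03 over all genes. Of these, 0 passed the adjusted threshold in limma (0.0317% of all genes did), 3 were higher at an unadjusted p under 0.05 (10.5% of all genes), and 6 were higher without overlap of the groups (14.6% of all genes in either direction). In SRFHKO hearts, 29 were higher and 4 lower, with a median of 0.28 against -0.01. Here too 0 passed in limma (0.293% of all genes did), with 7 higher at an unadjusted p under 0.05 (10.9% of all genes) and 7 higher without overlap (17% of all genes).

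Of the 33 genes, 24 were higher with PE in both genotypes, 2 lower in both and 7 opposite, while 24.9% of all genes were higher in both. All 12 chaperones were higher in both, with medians of 0.30 in control and 0.41 in SRFHKO hearts, although Ppib, cyclophilin B, differed by 0.06 ± 0.11 and 0.00 ± 0.11. Of the disulfide genes 4 of 6 were higher in both, of the degradation genes 3 of 4, of the sensors and transcription factors 3 of 6, and of the targets of ATF4 1 of 3. Herpud1 and Chac1, a glutathione-degrading enzyme, were the 2 genes lower in both. Since most chaperones were high or low together in a given heart, these counts of genes are not separate observations, and each group held 3 hearts. Fibroblast markers summed to between 7469 and 10820 in control hearts without PE and between 10840 and 11060 with it, and to between 7306 and 10220 and between 9829 and 13930 in SRFHKO hearts. Their part in these differences was not tested.

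In control hearts, Ddit3 had 7.37, 7.41 and 7.88 without PE and 8.11, 7.85 and 8.01 with PE. The groups overlapped slightly, and the difference was 0.44 ± 0.18, or 1.36-fold (limma adjusted p = 0.379). A dimmer second probe set had -0.26, and the mean of both 0.09. Atf4 had 9.0, 8.62 and 9.24 without and 9.31, 9.34 and 9.49 with PE, without overlap, a difference of 0.42 ± 0.19 (limma adjusted p = 0.447). Canx differed by 0.32 ± 0.14 (limma adjusted p = 0.423), and by 0.14 with its probe sets averaged. The other genes whose groups did not overlap were Hspa5, Hsp90b1, Pdia4, Dnajb9 and Creld2. Pdia4 had 5.0, 4.92 and 4.59 without and 5.75, 5.80 and 5.62 with PE, a difference of 0.89 ± 0.43 (limma adjusted p = 0.477), the largest of the 33 genes in this comparison.

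In SRFHKO hearts, Creld2 had 6.70, 6.72 and 6.85 without PE and 6.99, 8.24 and 7.99 with PE. The groups did not overlap, but replicate 1 with PE lay much nearer to the hearts without PE, and the difference was 0.98 ± 0.38, or 1.98-fold (limma adjusted p = 0.307). Hspa5 had 10.78, 10.63 and 11.10 without and 10.97, 11.79 and 11.79 with PE, with replicate 1 again the low one, and a difference of 0.68 ± 0.27 (limma adjusted p = 0.335). Manf had 8.41, 8.73 and 9.14 without and 9.01, 10.28 and 10.22 with PE, a difference of 1.08 ± 0.44 (limma adjusted p = 0.357).

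Sel1l, the adaptor that ties Syvn1 to its substrates, had 8.14, 8.60 and 8.60 without PE and 8.67, 8.97 and 9.04 with PE in SRFHKO hearts. The groups did not overlap, and the difference was 0.44 ± 0.18 (limma adjusted p = 0.353), or 0.13 with its probe sets averaged. Syvn1 differed by 0.63 ± 0.26, Eif2ak3 by 0.53 ± 0.22, Atf6 by 0.25 ± 0.11, Xbp1 by 0.38 ± 0.20, Ddit3 by 0.06 ± 0.18, Ern1 by 0.18 ± 0.17 and Atf4 by -0.13 ± 0.19. Without replicate 1 of the SRFHKO hearts with PE the median over the 33 genes was 0.41. Without SRFHKO replicate 1 of the untreated hearts it was 0.18, and without replicate 3 or 1 of the untreated controls the median of the control comparison was 0.11 or 0.30, while it was 0.11 without control replicate 2 with PE.

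**Figure D4:**
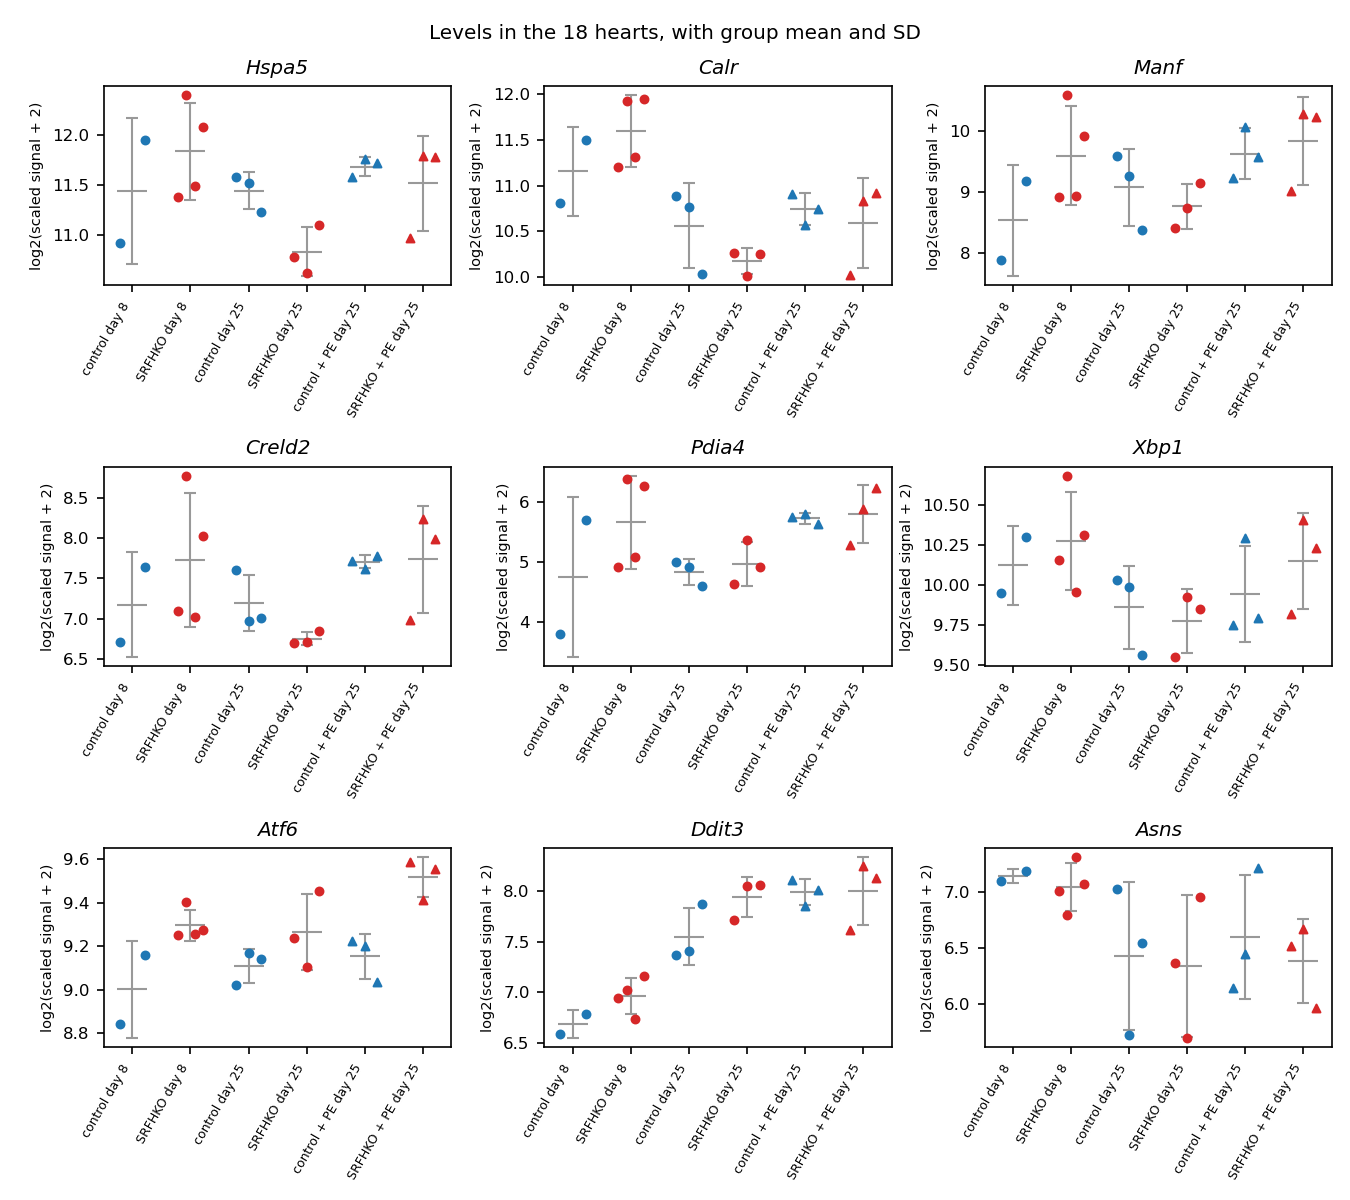
Log2(scaled signal + 2) (vertical axis, its range set for each gene) of 9 of the genes in the 18 hearts, by group; blue is control, red SRFHKO, triangles are hearts with PE, and grey marks are the group mean and SD. SRFHKO replicate 2 of day 8 is the highest of all hearts for Hspa5, Manf, Creld2 and Xbp1, and all 6 hearts of day 8 lie below all 12 of day 25 for Ddit3.

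Whether the PE response differed between genotypes was tested as an interaction, and 0 of the 33 genes passed in limma (0.0238% of all genes did), with 1 at an unadjusted p under 0.05 (7.52% of all genes). That gene was Eif2ak3, the sensor PERK, at 0.70 ± 0.31 (limma adjusted p = 0.629). It had 6.05, 6.50 and 6.06 in control, 6.22, 6.08 and 5.77 in control with PE, 6.17, 5.74 and 5.70 in SRFHKO and 6.18, 6.70 and 6.31 in SRFHKO hearts with PE. The hearts with PE all lay above those without in SRFHKO mice, and the groups overlapped in control mice. Atf4 had the opposite sign, at -0.56 ± 0.27 (limma adjusted p = 0.666), and Ern1 had 0.43 ± 0.25 (limma adjusted p = 0.73). A dimmer probe set of Ern1 had -0.17, and with both averaged Ern1 had 0.13. The median over the 33 genes was 0.18, against 0.03 over all genes. It was 0.10 without replicate 1 of the control hearts and 0.11 without replicate 2 of the SRFHKO hearts with PE, and 0.27 without replicate 3 of the SRFHKO hearts without PE. After scaling to a common median it was 0.09 against -0.06.

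Whether the genotype difference changed from day 8 to day 25 was tested as a second interaction, and 0 of the 33 genes and 0% of all genes passed in limma. At an unadjusted p under 0.05 there were 4 genes, all with a lower SRFHKO to control difference at day 25 (11.2% of all genes in either direction). These were Hspa5 at -1.0 ± 0.39, Pdia3 at -0.74 ± 0.31, Calr at -0.83 ± 0.38 and Manf at -1.37 ± 0.65 (limma adjusted p = 0.342, 0.384, 0.425 and 0.439). A dimmer probe set of Pdia3 had 0.16, and with both averaged Pdia3 had -0.29. The median over the 33 genes was -0.23, against -0.04 over all genes. It was -0.01 without control replicate 1, -0.08 without SRFHKO replicate 2 and -0.40 without control replicate 2 of day 8, -0.13 without SRFHKO replicate 1 of day 25, -0.36 with array brightness as a covariate, and 0.12 against 0.31 over all genes after scaling to a common median.

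Between the days, Ddit3 had its 6 hearts of day 8 (6.59 to 7.16) below all 12 hearts of day 25 (7.37 to 8.25), as did 2.07% of all genes. Ern1 had the reverse order, 7.38 to 7.71 at day 8 and 6.44 to 7.24 at day 25, as did 3.54% of all genes. A dimmer second probe set of each gene overlapped between the days. That of Ddit3 ran from 2.27 to 5.28 at day 8 and from 3.40 to 5.93 at day 25. That of Ern1 ran from 4.22 to 4.67 and from 3.94 to 5.32. The other 31 genes overlapped between days, and the days were hybridised at different brightness, as given above.

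The 12 chaperones, seen over all 6 groups, shared no single order. The group means of Hspa5 ran from 11.84 in SRFHKO hearts of day 8 to 10.84 in SRFHKO hearts of day 25, and the range of 1.0 was 2.52 times its within-group SD. Those of Hsp90b1 ran from 10.77 in SRFHKO hearts of day 8 to 10.07 in control hearts of day 25, a range of 1.65 times its SD.

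Several of the 33 genes are read by more than 1 probe set. For 21 genes, 37 further probe sets lay above the filter, of which 27 had the sign of the main one at day 8, 18 at day 25 without PE, 24 at day 25 with PE, and 28 in each PE comparison. A further probe set of Hspa5 had 10.26 and 11.39 in control hearts and 11.11, 11.96, 11 and 11.78 in SRFHKO hearts of day 8, with replicates 2 and 4 on top. A dimmer one of Hspa5 had 6.72, 7.38, 7.27 and 6.91 in those SRFHKO hearts, with replicates 2 and 3 on top. The further probe sets of Hyou1 had replicates 1 and 2 on top. Those of other genes were likewise divided, as listed above. One further probe set, of Sel1l, passed the threshold at day 8 when all probe sets were tested: 5.88 and 5.74 in control against 6.75, 7.50, 6.53 and 7.09 in SRFHKO hearts, a rise of 1.16 (limma adjusted p = 0.0497). The brightest of the 5 Sel1l probe sets had 8.78 and 9.29 against 9.18, 9.56, 8.97 and 9.46, with overlapping groups and a difference of 0.26 ± 0.19 (limma adjusted p = 0.763). The 3 others had differences of 0.53, 0.51 and 1.58, so all 5 had the same sign.

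Beyond the 33 genes, 6 lists of related genes gave 132 measured genes of 143 listed. In the ER to Golgi list, Arf4, a small GTPase of early secretory membranes, had 9.55, 9.49 and 9.17 in control and 9.90, 9.93 and 10.17 in SRFHKO hearts of day 25 without PE. It rose by 0.60 ± 0.12, or 1.51-fold (limma adjusted p = 0.0181), 1 of 20 measured genes of that list (2.34% of all genes passed here). In the list of further degradation genes, Vcp, the ATPase p97 that extracts proteins from the ER membrane, had 11.43, 11.30 and 11.21 against 10.84 to 11.05 in the same comparison. Its log2 level fell by 0.39 ± 0.09 (adjusted p in limma, 0.0284), 1 of 21 measured genes. A single call in lists of this size is read as no result about the lists.

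In the list of further unfolded protein response regulators, Wfs1, the ER membrane protein wolframin, had 9.11, 9.17 and 8.93 in control and 9.50, 9.55 and 9.60 in SRFHKO hearts with PE. It rose by 0.48 ± 0.11 (limma adjusted p = 0.039), 1 of 13 measured genes (1.63% of all genes passed in that comparison). Each of these 3 calls was lost under several alternatives, among them array brightness as a covariate (adjusted p = 0.136, 0.215 and 0.238 for Arf4, Vcp and Wfs1). For Vcp the difference was -0.17 when arrays were scaled to a common median. Without control replicate 3 or SRFHKO replicate 3, Arf4 had adjusted p = 0.081 and 0.0931. Vcp had between 0.053 and 0.109 without control replicate 1 or 2 or SRFHKO replicate 2 or 3, and Wfs1 had between 0.0707 and 0.182 without any 1 heart other than control replicate 2 with PE.

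In the 3 other lists, further folding enzymes and factors (24 measured), translocation and signal processing (26) and the integrated stress response (28), 0 genes passed in any of the 7 contrasts. At day 8, SRFHKO against control, their counts at an unadjusted p under 0.05 were 1 higher, 6 higher and 1 lower, and 1 higher and 1 lower (8.74% of all genes in either direction). At day 25 without PE, 6 translocation genes were higher at that level and 0 lower, a share near that of all genes (18.3% in either direction). Against 16.3% of all genes, SRFHKO replicates 2 and 4 of day 8 were the upper pair in 16 of 26 translocation genes and 11 of 21 further degradation genes. They were the upper pair in 7 of 20 ER to Golgi genes, 6 of 24 further folding genes, 4 of 28 genes of the integrated stress response and 2 of 13 further regulators. The latter 2 lists, at 14.3% and 15.4%, lay near the share of all genes.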

How the data were processed

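Gene expression was read on Affymetrix arrays in 18 mouse hearts. The deposited values are intensity on a linear scale for 45101 probe sets. Per the submitters' processing notes they came from GCOS, and per the labels' protocols biotinylated cRNA was made from Trizol-extracted total RNA. The GCOS version, signal algorithm and scaling were not given in the sources used here. Since the authors' intensity differed in overall level between arrays, each was scaled to a common 2% trimmed mean of 90.6, a pseudocount of 2 was added and log2 was taken, which understates changes of dim genes. Left out were 64 control probe sets and those with a mean below the 40th percentile (log2 value 3.58), leaving 27000. Gene names are those of the platform annotation, brought up to date with RefSeq (GRCm38.p6, for names and promoters only); 34945 probe sets had 1 symbol, 932 several and 9160 none. Of the listed names, Ero1l and Ero1lb are now Ero1a and Ero1b.

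One limma model (version 3.58.1, R 4.3.3) covered all 18 arrays with 1 mean for each group and an intensity trend, and the spread is shared by all groups, the 2 controls of day 8 included. The 7 contrasts were tested two-sided with Benjamini-Hochberg adjustment over 12610 genes at 0.05. Errors of differences are standard errors and intervals are 95%. The procedure was tested on simulated data. The number of arrays limits the precision. The titles call the replicates biological, and nothing else was used to show that they are separate litters or days. The genes named were those past the threshold, 9 central members in any case, and the 3 members of smallest p in each contrast; a named gene outside this rule (such as Creld2, Pdia4, Dnajc3 and Manf in the description of the hearts, and the Sel1l probe set) was chosen after its values were seen. The members, lists and comparisons were chosen with earlier results of these data known. Alternatives were the pseudocount (none or 10), the filter (none or the 60th percentile), quantile and median scaling, the compared groups alone, a replicate block, array brightness as a covariate, all probe sets of a gene, and each replicate left out. The result of 1 list of cell type markers is not reported here.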

Additional observations from a re-analysis of the deposited data

Results flagged for a closer look

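Among the 4 SRFHKO hearts of day 8, 2 members had 1 heart far from the others by Dixon's test, which chance flags in about 1 in 20 groups. For Atf6, replicate 2 was the highest with a log2 level of 9.40, against 9.25 to 9.28 in the others, and the gap was 0.83 of the range, just past the critical value. For Trib3, a pseudokinase induced through ATF4 and CHOP, replicate 4 was the lowest with 4.31, against 5.43 to 5.54 in the others, and the gap was 0.907 of the range. The other groups had 2 or 3 hearts and were not examined in this way.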

How the results depend on the processing

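The count of members past the threshold was 0 in each of the 7 contrasts, and it remained 0 in 123 of 124 alternatives. The exception was scaling to a common median at day 25 without PE, which gave 1 gene, Ddit3. That scaling moved the median of all genes by over 0.1 in 5 contrasts, for example from -0.05 to 0.17 there, where the members' median went from -0.03 to 0.19, a shift relative to all genes of 0.01 and 0.02. For the interaction of day and genotype it turned the members' median from -0.23 to 0.12, and relative to all genes it was -0.19 in both. Leaving out each replicate in turn gave 0 to 0 members past the threshold in every contrast, the smallest adjusted p being 0.0866. The replicate block also gave 0 calls in every contrast. The numbers were not taken to pair the hearts in the main model. Correlations of same-numbered hearts ran from -0.08 to 0.09. From 2 to 6 of 6 hearts correlated best with their own number, the 6 being those of PE against no PE in control. Array brightness at day 25 did follow the numbers, highest in replicate 2 and lowest in replicate 3 in every group. Whether same-numbered hearts were handled together was not tested. The 21 differences of the 3 members of smallest p in each contrast kept their direction and missed the threshold in 372 of 372 alternatives; the other differences of the central members were followed only through the counts above, Ddit3 at day 25 without PE among them. Those of Arf4, Vcp and Wfs1, run under the same alternatives as an addition after the data were seen, kept their direction in 48 of 48 and lost the call in 21; the cause was not tested. Intervals were wide: their median half-width was 0.50 at day 8 and 0.47 at day 25. For the interactions it was 0.67 with PE and 0.69 with day. These intervals are not adjusted for the number of genes, and differences well above these sizes also missed the adjusted threshold. The largest were those of Manf, 1.06 at day 8, 1.08 with PE in SRFHKO hearts and -1.37 for the interaction of day and genotype.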
